A study of Mus musculus with 9 samples.

Results

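The arrays compared were 3 of F4/80low tumour-associated macrophages (TAMs) and 3 of peritoneal exudate cells (PECs), 6 of the 9 arrays of the series, chosen by their titles alone. The TAMs were labelled as macrophages of a fibrosarcoma and the PECs as control macrophages of the peritoneum. The mice of all groups were C57BL/6J, and each RNA sample was labelled with Cy3 and hybridised to an Agilent array of 1 colour. The F4/80low cells are the part of the tumour macrophages with little of F4/80, the surface protein that the gene Adgre1 encodes, and no other marker of the sort is named in the labels. The other 3 arrays held F4/80high TAMs of the same kind of tumour and strain, and they enter below where the subsets are set side by side. Replicates are described as biological in the design text, which names no animals, so p-values measure the spread between these samples. Tissue of origin, tumour and the handling of the cells differ together between the groups and cannot be told apart. PEC replicate 1 shared slide 1 with all TAM arrays, whereas PEC replicates 2 and 3 lay on slide 2.

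Macrophages take up and digest debris, sense microbes and signal to other immune cells through cytokines and chemokines. Those of the peritoneal cavity are known for scavenger receptors, complement and lipid handling. Macrophages in tumours arise largely from blood monocytes, and F4/80 and other surface proteins of mature macrophages are acquired as monocytes differentiate.

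Many of the genes tested differed between F4/80low TAMs and PECs. Of 16462.0 genes tested with limma, 8542.0 (51.9%) had a Benjamini-Hochberg adjusted p of at most 0.05, with 3743.0 higher and 4799.0 lower in F4/80low TAMs. Levels are log2 intensities relative to the 75th percentile of each array, and a difference is the F4/80low mean minus the PEC mean on that scale. A gene counted as measured in both groups where all 6 arrays had its probe well above background. Of 13279.0 such genes, 2444.0 (18.4%) were called higher and 3972.0 (29.9%) lower, and the median difference was −0.14. The other 6863, more than were called, did not pass the test. Counts of gene lists below are over members measured in both groups, to be read against these shares; where another setting moved such a count by over 1.5 times and by more than 1 member, its value follows. Among the same genes 369.0 calls were at least 4-fold higher and 439.0 at least 4-fold lower. The arrays of the groups did not overlap in 7565.0 of the 13279.0 genes, of which 6219.0 were called. The split leaned on the scaling: with each array centred on its median, the median difference over all genes was −0.56 in place of −0.09, and 1931 genes were called higher and 6788 lower. Within slide 1, with PEC replicate 1 as the lone PEC array assumed to vary like the other groups, 4127 genes were called, 1943 of them higher, and with slide as a block 4904, of them 2199 higher. A further 600.0 genes stood well above background on every F4/80low array and on no PEC array, and 546.0 the reverse. These had to differ, so they are given as bounds and support no count. A bound of at least N-fold sets the mean of the bright group against a floor for the dim group, which is, on each array, the higher of the gene's own signal and the lowest signal among probes well above background.

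**Figure D1:**
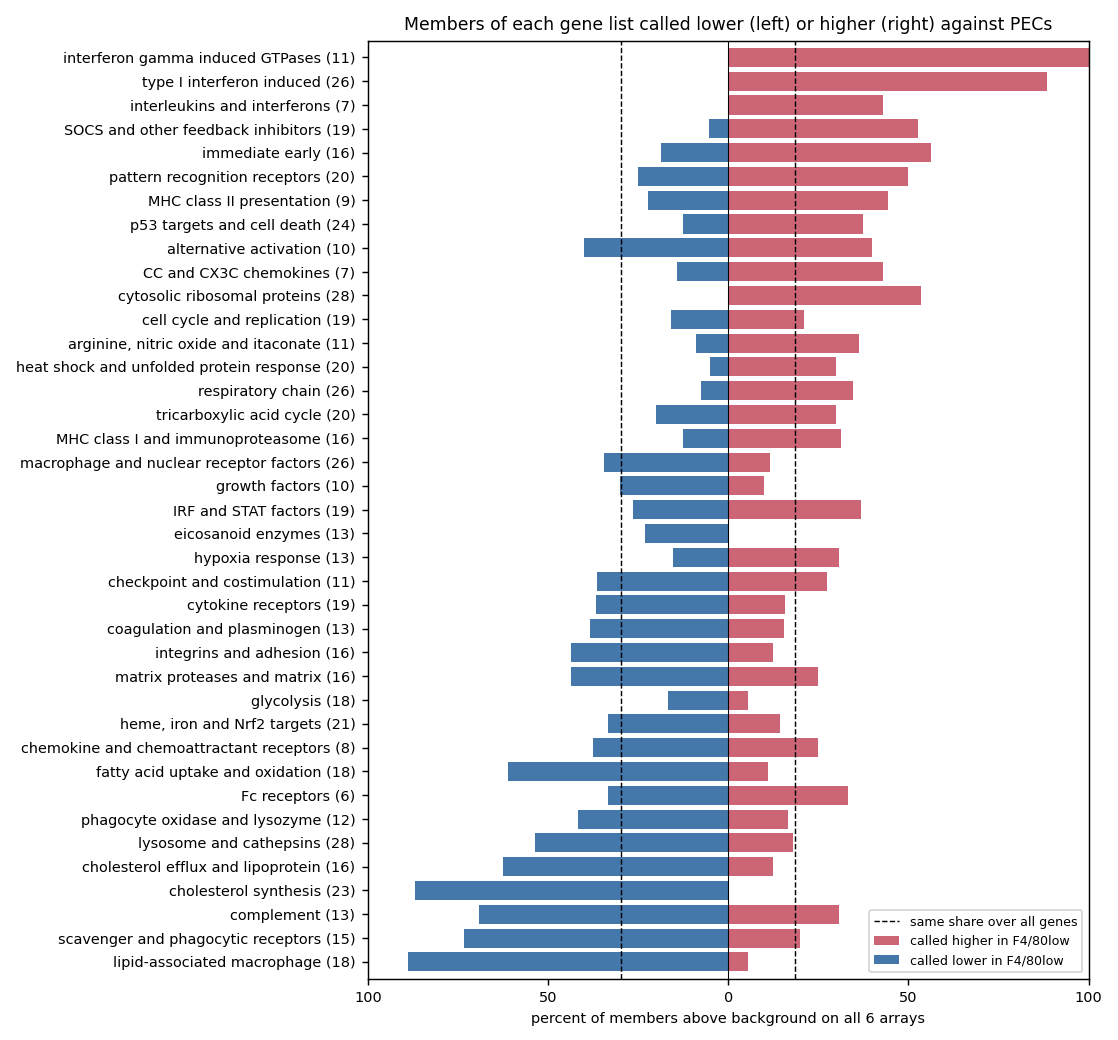
Percent of the members of each gene list called lower (bars to the left) or higher (bars to the right) in F4/80low TAMs than in PECs, out of the members above background on all 6 arrays, whose number stands in brackets. Dashed lines mark the same shares over all such genes, 29.9% lower and 18.4% higher; the interferon lists lie at the top and the lipid-associated and cholesterol synthesis lists near the bottom.

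The label of both groups as macrophages was checked first. Of 21 identity markers listed, 20 were above background on all PEC arrays and 18 on all F4/80low arrays, 18 were measured in both groups, and of these 1 was called higher and 11 lower (median −0.93). Within slide 1 these counts were 1 and 7. Csf1r, the receptor for the growth factor that macrophages depend on, was bright in both groups, at 9.07, 8.85 and 8.74 in F4/80low TAMs and 9.28, 9.20 and 9.29 in PECs. Its difference of −0.37 (SE 0.20, limma adjusted p 0.155) did not pass the test; it passed with normexp, a model-based background correction (−0.64), with quantile normalization (−0.48), with median centring (−0.84) and in the deposited values (−0.45). Adgre1, the gene of F4/80 itself, stood at 2.78, 3.44 and 2.45 against 5.77, 5.71 and 6.17 and fell by 2.99 (SE 0.27). The cells were sorted for little F4/80, so this fall, counted among the 11, is no independent check of identity. Lyz2, the lysozyme of macrophages and neutrophils, stood at 5.91, 4.67 and 4.28 against 8.19, 7.08 and 7.73 and fell by 2.72. The arrays of the groups did not overlap for either gene. The mannose receptor Mrc1 fell by 4.16 (−2.68 with normexp), the scavenger receptor Msr1 by 2.70, the cathepsin Ctss by 2.03 and the lysosomal glycoprotein Cd68 by 1.44. Cd14, which helps Toll-like receptors bind lipopolysaccharide, was the identity marker called higher, by 1.13 (0.66 and not past the test with median centring). The apoptotic cell receptor Mertk was at least 20.7-fold lower.

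Markers of resident large peritoneal macrophages were partly present in the PECs: of 20 listed, 11 were well above background on all 3 PEC arrays. Gata6, the transcription factor that defines these cells, was among them but dim, at −1.68, 0.16 and 0.03, and the surface proteins Timd4 and Lyve1 and the chemokine Cxcl13 were not well above background throughout any group. The summed level of the 12 markers tested was not lower in F4/80low TAMs, at 11.22 to 11.39 against 10.92 to 11.28. The sum adds unlogged levels, so the brightest markers weigh most in it and it says little of the others. Of the 12, 5 were above background on all PEC and no F4/80low arrays, and 0 the reverse. Such markers had to differ, so this count supports nothing. Over all 16462 genes tested, 546 were above background on all PEC and no F4/80low arrays and 600 the reverse. Of 5 measured in both groups, 0 were called higher and 4 lower, and within slide 1 2 were called lower. The complement component receptor Vsig4 was at least 51.2-fold lower in F4/80low TAMs, Prg4, a lubricating proteoglycan, at least 6.49-fold (12.1 without PEC replicate 1) and Gata6 at least 3.12-fold (4.7 without that array). Cd93, a surface glycoprotein of myeloid cells, was measured in both groups and fell by 3.85.

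Summed markers of neutrophils, monocytes, T cells and NK cells were higher in the F4/80low arrays than in the PEC arrays, and those of dendritic cells were lower. In bulk samples fewer cells of a type and less RNA per cell cannot be told apart. The summed level of the 21 neutrophil markers tested was 11.07 to 13.11 in F4/80low TAMs on the log2 scale, against 8.49 to 9.04 in PECs and 8.46 to 8.98 in F4/80high TAMs. All 21 were above background on the 3 F4/80low arrays, 10 on the 3 PEC arrays. T cell markers summed to 5.25 to 6.30 against 3.59 to 4.21, with 15 and 6 of 20 listed above background. NK cell markers summed to 5.29 to 6.02 against 3.10 to 3.43, with 8 and 2 of 12. Monocyte markers summed to 8.80 to 10.25 against 7.17 to 7.21, and those of macrophage identity to 11.23 to 11.42 against 12.24 to 12.26. Dendritic cell markers summed to 8.23 to 8.36 against 8.90 to 9.20, but their counts above background went the other way, with 12 and 7 of 18. Flt3, Dpp4, Kmo and Fscn1 were above background on all F4/80low and no PEC arrays. Sums and counts above background include markers tested only because the F4/80low arrays showed them, which had to be higher there. Of the markers measured in both groups, 6 of 10 of neutrophils were called higher and 1 lower. For T cells 3 of 6 were called higher and for NK cells 2 of 2, with none lower in either list by limma. For dendritic cells 0 of 6 were called higher and 4 lower, and 2 lower within slide 1. Of B cell markers 1 of 12 was tested, at 0.94 to 1.19 against 1.24 to 2.10, and Cd79a and Ms4a1 were not well above background throughout any group. The part of other cells in the differences below was not tested.

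**Figure D2:**
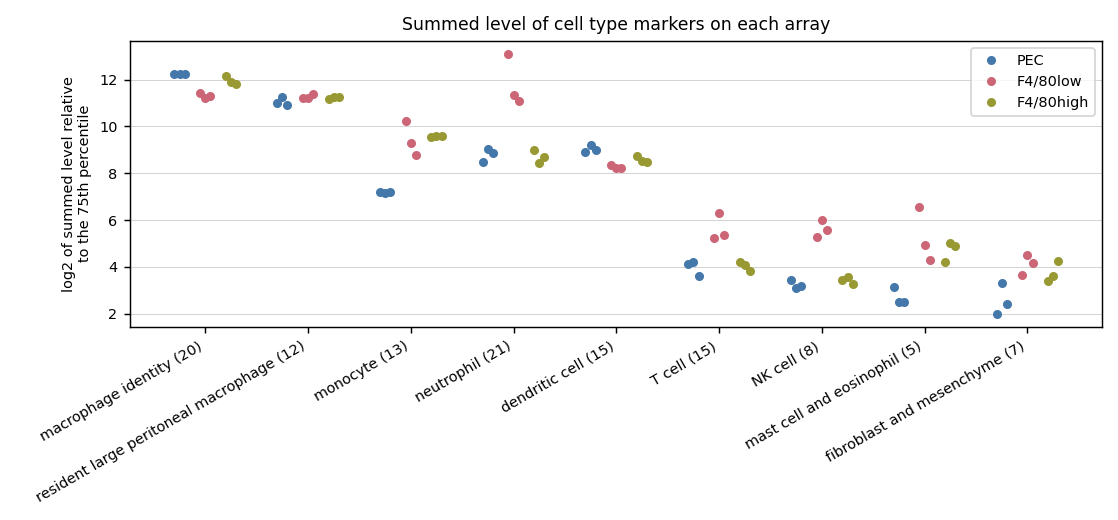
Log2 of the summed level of each cell type's markers on each array (points), relative to the 75th percentile, for the lists with at least 5 markers tested, whose number stands in brackets. The F4/80low arrays lie above the PEC arrays for neutrophil (11.07 to 13.11 against 8.49 to 9.04), monocyte, T cell and NK cell markers and below them for macrophage identity and dendritic cell markers (8.23 to 8.36 against 8.90 to 9.20). Those of resident large peritoneal macrophages overlapped, at 11.22 to 11.39 against 10.92 to 11.28.

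Among neutrophil genes, S100a8, a subunit of calprotectin, stood at 10.38, 8.79 and 8.46 in F4/80low TAMs and 2.94, 2.51 and 3.34 in PECs, a rise of 6.28 (SE 0.77, limma adjusted p 0.000193). Camp, the precursor of the cathelicidin peptide of neutrophil granules, was above background on 1 of 3 PEC arrays and stood at 10.50, 5.88 and 3.21 against −2.93, −2.17 and −2.78. Mpo, the myeloperoxidase made by granulocyte precursors, stood at 7.06, 0.83 and −1.55 against −4.56, −3.31 and −4.85. F4/80low replicate 1 was the highest array for all 3 genes. With and without that array, Mpo was at least 25.4-fold and 4.58-fold higher, the granule protein Ngp at least 194-fold and 50.1-fold, the chemokine receptor Cxcr2 at least 15.9-fold and 8.7-fold, and the resistin-like Retnlg at least 467-fold and 262-fold. Without F4/80low replicate 3 the bounds of Mpo and Ngp were 90.4 and 509, and without replicate 2 that of Mpo was 39.6. Without replicate 1 the summed neutrophil level of the other F4/80low arrays was still 11.07 and 11.36, above every PEC array. Csf3r, the receptor for granulocyte colony-stimulating factor, differed by 0.80 and passed the test, but not within slide 1 (0.61) or with median centring (0.33); it was 0.52 with normexp.

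Of 8 monocyte markers measured in both groups, 7 were called higher and 0 lower (median 2.38). Spn, the sialoglycoprotein CD43, stood at 3.49, 3.01 and 2.37 against 0.67, 0.80 and 0.88 and rose by 2.17 (SE 0.30), and Clec4e, a lectin that senses mycobacterial and damaged-cell lipids, rose by 4.37. Ly6c1, a Ly6 family gene listed here among the monocyte markers, was above background on 2 of 3 PEC arrays. It stood at 8.21, 6.61 and 6.07 against −2.35, −1.88 and −1.37. Its relative Ly6c2, also listed, had no probe of that name, and whether the Ly6c1 probe shares its signal was not tested. Of lymphocyte genes, Cd5 stood at 2.14, 2.54 and 2.20 against −1.17, −1.06 and −1.61 and Cd2 at 1.48, 3.31 and 2.14 against −1.39, −1.76 and −1.18; they rose by 3.57 and 3.75 (2.23 and 2.26 with normexp). The cytotoxic granzyme Gzma was at least 64.6-fold higher, Gzmb at least 44.5-fold, the T cell receptor subunit Cd3d at least 16.8-fold and the interferon gamma gene Ifng at least 16.8-fold.

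The largest rises among genes measured in both groups were in a gelatinase, in neutrophil and myeloid effectors, in an itaconate enzyme and in interferon-induced genes. Mmp9, the gelatinase that degrades basement membrane collagen (probe on chromosome 2, 164780620 to 164780679 of mm9), stood at 6.39, 6.54 and 6.21 in F4/80low TAMs and −1.75, −1.85 and −2.63 in PECs, a rise of 8.46 (SE 0.32, limma adjusted p 3.26e-07), or 351-fold. Lcn2, which binds bacterial siderophores, stood at 10.21, 6.36 and 5.40 against −1.42, −1.59 and −1.04 and rose by 8.67 (SE 1.02). Its F4/80low arrays spread over a wide range, with replicate 1 highest, yet none overlapped the PECs.

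Chil3, a chitinase-like lectin of alternatively activated macrophages and myeloid precursors, stood at 9.94, 7.33 and 7.26 against 1.23, −1.35 and 1.38 and rose by 7.75 (SE 0.95). Acod1, the enzyme that makes itaconate, stood at 8.50, 8.64 and 7.88 against −0.12, 1.26 and 1.37 and rose by 7.51 (SE 0.38). Il4i1, an amino acid oxidase of myeloid cells, rose by 6.12, Mefv, the inflammasome protein pyrin, by 6.39, Hspa1a, an inducible heat shock chaperone, by 6.28, and Ifitm6, a myeloid interferon-induced membrane protein, by 5.69. Ocstamp and Oscar, known from the fusion and activation of osteoclasts, rose by 6.03 and 5.24, and the AP-1 repressor Jdp2 by 5.43. Stfa2, a stefin that inhibits cysteine proteases, rose by 5.22 and Gm9706, a pseudogene in RefSeq, by 5.45. Near-identical copies can share signal with Stfa2, with Gm9706 and, as Hspa1b, with Hspa1a. The arrays of the groups overlapped for none of these genes, as the rule for naming them required.

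Among genes above background on all F4/80low and no PEC arrays, the largest bounds were those of the chemokine Cxcl10, at least 1531-fold higher, and the cytokine Il1b, at least 492-fold. Retnlg followed with at least 467-fold, Kbtbd11, a kelch protein, with at least 423-fold, the interferon-induced Ifitm1 with at least 369.8-fold, the predicted gene Gm7676 with at least 349-fold, Wfdc21 with at least 256-fold and Fpr1, a receptor for formylated bacterial peptides, with at least 209.5-fold. Without F4/80low replicate 1 the bounds were 262 for Retnlg, 109 for Wfdc21 and 115 for Fpr1, and without replicate 3 that of Wfdc21 was 412. Another Kbtbd11 probe gave a log2 difference of 3.92.

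The largest falls were led by Gpnmb and a clotting factor. Gpnmb, a glycoprotein of lysosomes (probe on chromosome 6, 49006386 to 49006445 of mm9), stood at 0.46, 2.24 and 2.23 in F4/80low TAMs and 9.68, 9.44 and 9.64 in PECs, and fell by 7.94 (SE 0.53, limma adjusted p 6.38e-06). F7, coagulation factor VII, stood at −1.51, −1.02 and −1.38 against 5.22, 4.69 and 5.06 and fell by 6.29 (SE 0.25). Lpl, lipoprotein lipase, which splits triglycerides outside the cell, stood at 3.89, 4.35 and 4.04 against 9.06, 9.15 and 9.19 and fell by 5.04 (SE 0.18). Arrays of 1 group lay close together for these genes next to the gap between the groups.

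Pparg, the nuclear receptor of lipid-handling macrophages, stood at −0.57, 0.20 and −1.17 against 4.61, 4.36 and 4.41 and fell by 4.98 (SE 0.33). Mfge8, which bridges phagocytes and apoptotic cells, fell by 4.93, the fatty acid binding protein Fabp7 by 5.39, the integrin Itgax (CD11c) by 5.08 and P2ry6, the receptor for extracellular UDP, by 5.52. Dhrs3, which reduces retinal, fell by 5.67, Daglb, a lipase that makes the endocannabinoid 2-arachidonoylglycerol, by 5.10, the proton pump subunit Atp6v0a1 by 4.85, the ubiquitin ligase Rnf128 by 5.60 and the endoplasmic reticulum protein Wfs1 by 5.55. The intermediate filament gene Nes fell by 6.08 and the glutaminyl cyclase Qpct by 5.43. The myeloid surface receptor Cd300ld fell by 5.04, the scaffold Dlg3 by 4.86 and the interleukin 11 receptor chain Il11ra1 by 4.78. Ephx1, a detoxifying epoxide hydrolase, fell by 5.36 on its brightest probe, but its other probe gave −0.41. The complement component C4b fell by 4.80, and by 3.05 within slide 1. Cd36, which takes up oxidised lipoproteins as well as fatty acids, was at least 781-fold lower, the resistin-like Retnla at least 76.5-fold and Cd5l, a secreted scavenger protein, at least 73.4-fold. Mamdc2 was at least 153-fold lower, Sel1l3 at least 48.7-fold, Stac2 at least 46.3-fold and Ms4a8a at least 46.0-fold.

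**Figure D3:**
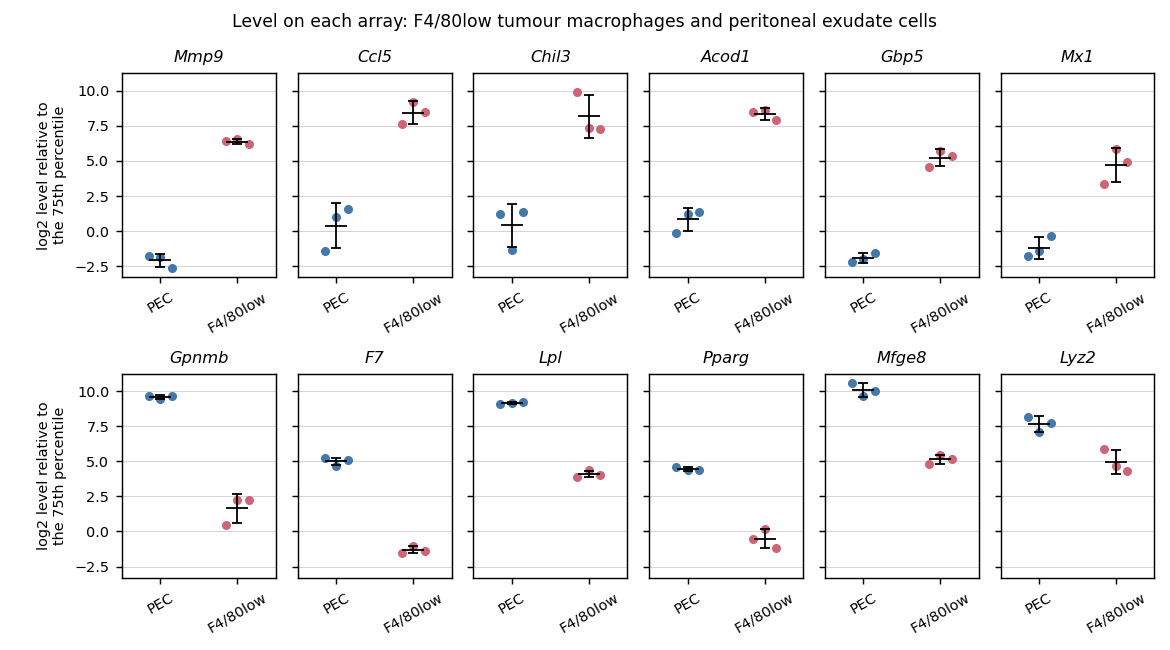
Log2 level relative to the 75th percentile on each of the 3 PEC and 3 F4/80low arrays (points in order of replicate) for 12 genes, with the mean and SD (n = 3) in black. The upper row holds 6 of the genes that rose, such as Mmp9 (by 8.46), and the lower row 6 that fell, such as Gpnmb (by 7.94); no F4/80low array overlaps a PEC array.

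Chemokines, the secreted ligands that draw leukocytes, were split. Of 7 CC and CX3C chemokines measured in both groups, 3 were called higher and 1 lower (median 0.58). Ccl5, which draws T cells and monocytes, stood at 7.61, 9.22 and 8.47 against −1.43, 1.04 and 1.59 and rose by 8.03 (SE 0.70). Ccl4 and Ccl3, which draw monocytes and lymphocytes, rose by 4.24 and 2.96, and the chemokine Ccl6 fell by 2.50. The monocyte attractants Ccl2 and Ccl7 did not pass the test, at −0.46 and −1.12; Ccl7 passed with median centring (−1.60), with array weights (−1.22), and at an unchanged value in the fits of 6 arrays alone and of genes measured in both groups. Ccl1 was at least 31.9-fold higher and Ccl12 at least 7.95-fold. Of 4 CXC chemokines measured in both groups, 2 were called higher and 1 lower (median −0.14). Within slide 1 the counts became 0 and 1, and 0 and 2 with median centring. The platelet and macrophage chemokine Pf4 stood at 1.02, 2.21 and 2.61 against 5.62, 6.39 and 6.55 and fell by 4.24. Cxcl1, which draws neutrophils, was at least 31.8-fold higher and the interferon-induced Cxcl9 at least 27.5-fold.

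Of 7 interleukins and interferons measured in both groups, 3 were called higher and 0 lower (median 1.54). Others were above background on all F4/80low and no PEC arrays, as were 600 of all 16462 genes tested, and have bounds only. Besides Il1b, these included Il6, a cytokine of the acute phase, at least 19.4-fold higher, Ifnb1, interferon beta, at least 17.4-fold, and the anti-inflammatory Il10, at least 5.83-fold. Tnf, tumour necrosis factor, stood at 5.04, 4.63 and 3.94 against 0.11, 1.15 and 1.19 and rose by 3.72 (SE 0.39), whereas Tnfsf12, also called TWEAK, stood at 0.66, 0.27 and 0.77 against 3.75, 3.84 and 3.77 and fell by 3.22. Ltb, the lymphotoxin made mainly by lymphocytes, was at least 91.8-fold higher. Of 10 growth factors measured in both groups, 1 was called higher and 3 lower. The transforming growth factor gene Tgfb1 fell by 1.71 and its relative Gdf3 by 3.25 on its brightest probe. The other Gdf3 probe gave −1.45. Vegfc, a factor of lymphatic growth, was at least 31.0-fold higher, Hgf, hepatocyte growth factor, at least 5.13-fold lower, and the angiogenic factor Vegfa did not pass the test, at 0.24 (SE 0.44).

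Receptors for scavenging and for the uptake of dying cells were mostly lower. Of 15 measured in both groups, 3 were called higher and 11 lower (median −2.01). Trem2, a lipid-sensing receptor, stood at 5.84, 6.18 and 5.96 against 9.18, 9.20 and 9.30 and fell by 3.24 (SE 0.19), and Lrp1, a receptor for many cargoes, by 3.54. The integrin Itgb5 fell by 3.17 and the scavenger receptor Stab1 by 1.91. Axl, a receptor for the bridging proteins of dying cells, stood at 4.14, 4.77 and 4.48 against 2.73, 2.61 and 2.30 and rose by 1.92, while its ligand genes Gas6 and Pros1 fell by 2.01 and 3.78 (−1.74 and not past the test for Gas6 within slide 1, −2.30 for Pros1 with normexp and −2.44 in the deposited values). Itgav, the integrin chain that pairs with Itgb3 and Itgb5, rose by 1.29 (0.82 with median centring).

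Receptors that sense microbes moved both ways. Of 20 pattern recognition receptors measured in both groups, 10 were called higher and 5 lower (median 0.80). With median centring higher and lower calls numbered 6 and 6. The RNA sensors Ddx58 and Ifih1 rose by 2.64 and 2.13, the nucleic acid sensor Zbp1 by 2.14 and Nod1, a sensor of bacterial peptidoglycan, by 2.21. Clec7a (dectin-1), a receptor for fungal glucans, stood at 4.14, 4.92 and 3.88 against 8.37, 8.11 and 8.49 and fell by 4.01 (SE 0.35). Tlr13, a receptor for bacterial ribosomal RNA, fell by 2.33 and Tlr4, the lipopolysaccharide receptor, by 1.63. The inflammasome sensor Nlrp3 was at least 4.45-fold higher. Of 8 chemoattractant receptors measured in both groups, 2 were called higher and 3 lower: the receptors C5ar1 and C3ar1 for complement fragments fell by 2.37 and 2.49. Without PEC replicate 1 they numbered 0 and 3, and 0 and 3 within slide 1.

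Of 19 cytokine receptors measured in both groups, 3 were called higher and 7 lower (median −0.27). With median centring higher and lower members numbered 1 and 9, and 0 and 5 within slide 1. Ifnar1, a chain of the receptor for type I interferons, fell by 1.50 (−0.96 as the mean of its probes), the interleukin 10 receptor chain Il10rb by 1.63 and Csf2ra, a chain of the receptor for granulocyte-macrophage colony-stimulating factor, by 1.60. The decoy receptor Il1r2, which binds interleukin 1 without signalling, was at least 64.7-fold higher. Of 16 integrins and adhesion genes, 2 were called higher and 7 lower (median −0.34). Within slide 1 this split was 1 and 4. Itgb2, the chain shared by the leukocyte integrins, fell by 2.05 and the laminin integrin chain Itga6 by 2.36, and Vcam1, a ligand for leukocyte integrins, was at least 23.5-fold higher. Of 6 Fc receptors, 2 were called higher and 2 lower. Within slide 1 these counts were 0 and 0, and 0 and 3 without F4/80low replicate 1, 0 and 3 with normexp and 0 and 3 with median centring.

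Transcription factors of interferon signalling moved both ways. Of 19 IRF, STAT and JAK genes measured in both groups, 7 were called higher and 5 lower (median −0.04). Within slide 1 the counts became 5 and 1. Irf1, a factor induced by interferon gamma, stood at 6.45, 7.22 and 7.10 against 3.42, 3.45 and 3.57 and rose by 3.44 (SE 0.23). Irf7, which drives type I interferon genes, stood at 2.57, 3.65 and 3.90 against −0.12, 0.05 and 1.52 and rose by 2.89 (SE 0.48), and Stat2, a factor of type I interferon signalling, by 1.80 (1.75 and not past the test within slide 1). Irf5 fell by 1.22 and Irf8, a factor of monocyte and dendritic cell development, by 1.41 (−1.72 and not past the test within slide 1).

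Of 19 feedback inhibitors measured in both groups, 10 were called higher and 1 lower (median 1.36). Socs3, which blocks signalling of the interleukin 6 family, stood at 4.73, 4.70 and 4.50 against −1.50, −0.22 and −1.71 and rose by 5.78 (SE 0.35). Socs1, which blocks interferon signalling, stood at 2.97, 4.08 and 3.66 against −1.90, −0.51 and −1.27 and rose by 4.80 (SE 0.38). Nfkbia, the inhibitor that holds NF-kappaB in the cytoplasm, rose by 4.11. Cish, a target of STAT5, was at least 18.3-fold higher. Socs6 fell by 1.34 (−0.45 with normexp and −0.64 in the deposited values).

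Factors of macrophage identity and lipid sensing were called at shares near those over all genes measured in both groups (18.4% higher and 29.9% lower). Of 26 measured in both groups, 3 were called higher and 9 lower (median 0.04). Without F4/80low replicate 1 higher and lower calls numbered 5 and 9. Cebpa, a myeloid lineage factor, stood at 1.35, 0.69 and 0.96 against 4.63, 4.48 and 4.94 and fell by 3.68. Id3, an inhibitor of helix-loop-helix factors, fell by 2.96 and the sterol-sensing receptor Nr1h3 (LXR alpha) by 2.49. Spi1 (PU.1), the factor common to macrophages, differed by 0.49 and did not pass the test; it passed with quantile normalization (0.74), in the deposited values (0.75) and without F4/80low replicate 2 (0.66). Klf2 rose by 2.80 and Cebpd by 2.01. Of 16 immediate early genes, 9 were called higher and 3 lower (median 1.24). The orphan receptor Nr4a1 stood at 4.65, 4.40 and 2.44 against −1.39, −0.54 and −0.62 and rose by 4.68, whereas Egr2 stood at 0.15, 1.28 and 0.65 against 4.87, 5.87 and 5.61 and fell by 4.76; Atf3 fell by 2.81 and Fosl2 rose by 2.36.

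Interferon-induced genes rose broadly. Of 26 type I interferon-induced genes measured in both groups, 23 were called higher and 0 lower (median 2.33). Of 11 interferon gamma-induced GTPases measured in both groups, 11 were called higher and 0 lower (median 3.30). Mx1, an antiviral GTPase, stood at 3.38, 5.83 and 4.94 against −1.80, −1.44 and −0.34 and rose by 5.91 (SE 0.57, limma adjusted p 4.86e-05). Ifit3, which binds foreign RNA complexes, stood at 4.16, 6.29 and 6.06 against −0.83, −0.60 and 0.91 and rose by 5.67 (SE 0.60). Isg15, a ubiquitin-like modifier, stood at 7.61, 7.54 and 8.68 against 2.77, 3.29 and 3.40 and rose by 4.79 (SE 0.31). All F4/80low arrays lay above all PEC arrays for each. Gbp5, a GTPase that attacks pathogen vacuoles, stood at 4.60, 5.73 and 5.38 against −2.21, −2.02 and −1.53 and rose by 7.16 (SE 0.29). Tgtp2, whose near-identical copy Tgtp1 can share its signal, stood at 4.59, 6.46 and 5.98 against −1.79, −0.62 and −0.09 and rose by 6.51 (SE 0.52), and Igtp and Irgm2 rose by 3.64 and 3.48. Another Tgtp2 probe gave a log2 difference of 3.22. The antiviral enzymes Rsad2 and Cmpk2 rose by 4.77 and 4.96. Oas1a, which activates an antiviral RNase, did not pass the test (0.63), but did without F4/80low replicate 1 (1.07). Ifit1, kin of Ifit3, was above background on 2 of 3 PEC arrays and differed by 6.00 (3.87 with normexp).

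Against F4/80high TAMs the same genes were lower. All 11 of 11 GTPases and 24 of 26 type I genes measured on all 9 arrays were called lower in F4/80low than in F4/80high TAMs, where 32.6% of all genes tested were called in either direction; with the replicate number as a block in the 6 TAM arrays 10 of the GTPases were. Gbp5 stood at 8.18, 8.03 and 8.03 in F4/80high TAMs, 2.84 above the F4/80low mean, and Mx1 at 7.62, 7.88 and 7.75, 3.03 above it. The F4/80low levels of these genes lay between those of PECs and of F4/80high TAMs.

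The promoters of some of these genes are shown because the members moved together, and those shown were picked for holding a match. RefSeq promoter windows (GRCm38.p6) cover 300 bases, from 250 before to 50 after the start, and were searched on both strands for the interferon element GAAANNGAA. It was in 15 of 23 windows matched to the 30 type I genes listed and in 9 of 9 matched to the 16 GTPases, against 9.76% of 27025 genes with a window. Too few members matched to read a share for either list. For display, called members were taken by size of rise. Those with no window or no match in the 200 bases before the start were passed over. Mx1 and Cmpk2 rose more than Isg15 but are not shown. The 200 bases before the start follow, 5′ to 3′ on the gene's strand, with each match in capitals on whichever strand it lies; runs of capitals can hold overlapping matches.
Ifit1 (chr19:34640689-34640888, plus strand): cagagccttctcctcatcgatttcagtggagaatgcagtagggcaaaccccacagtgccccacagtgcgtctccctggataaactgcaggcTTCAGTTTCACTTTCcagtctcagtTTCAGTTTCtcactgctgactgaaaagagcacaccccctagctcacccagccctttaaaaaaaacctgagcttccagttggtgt
Ifit3 (chr19:34583329-34583528, plus strand): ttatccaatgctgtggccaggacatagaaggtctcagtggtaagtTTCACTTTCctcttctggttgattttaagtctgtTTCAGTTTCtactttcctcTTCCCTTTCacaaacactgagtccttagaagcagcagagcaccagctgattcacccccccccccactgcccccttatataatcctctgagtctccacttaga
Isg15 (chr4:156200819-156201018, minus strand): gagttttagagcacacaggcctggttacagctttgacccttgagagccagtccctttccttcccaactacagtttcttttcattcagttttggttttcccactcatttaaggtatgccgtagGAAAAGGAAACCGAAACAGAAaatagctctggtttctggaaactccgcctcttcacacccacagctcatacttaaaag
Gbp5 (chr3:142496734-142496933, plus strand): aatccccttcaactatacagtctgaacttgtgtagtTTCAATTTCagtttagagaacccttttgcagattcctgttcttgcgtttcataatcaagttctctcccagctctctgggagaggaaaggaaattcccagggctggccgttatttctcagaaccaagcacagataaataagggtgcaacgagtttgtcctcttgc
Tgtp2 (chr11:49064213-49064412, minus strand): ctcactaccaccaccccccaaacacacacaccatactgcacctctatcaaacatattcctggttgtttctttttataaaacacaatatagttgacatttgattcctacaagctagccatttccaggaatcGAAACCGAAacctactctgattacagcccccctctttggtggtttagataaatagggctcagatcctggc
The matches lay 66 to 155 bases before the start in the 3 type I genes, 164 in Gbp5 and 70 in Tgtp2. A match describes the sequence and shows no bound factor.

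Cxcl10, which had the largest bound of the comparison, is shown in the same way with matches to the kappaB consensus in capitals, held by 4 of 10 CXC chemokine windows and by 9.55% of all.
Cxcl10 (chr5:92348890-92349089, minus strand): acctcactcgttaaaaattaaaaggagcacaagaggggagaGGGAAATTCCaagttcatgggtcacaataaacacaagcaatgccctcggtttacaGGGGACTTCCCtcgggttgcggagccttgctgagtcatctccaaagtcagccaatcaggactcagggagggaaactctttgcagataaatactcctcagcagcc
Its level was 7.71, 8.22 and 8.13 in F4/80low TAMs and −4.47, −4.67 and −4.71 in PECs, where no array was well above background, and 9.69, 10.30 and 9.88 in F4/80high TAMs.

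Of 9 genes of MHC class II presentation measured in both groups, 4 were called higher and 2 lower (median 0.61). H2-Eb1, a chain of the peptide-presenting molecule, stood at 7.56, 8.27 and 7.47 against 5.71, 4.81 and 5.66 and rose by 2.37 (SE 0.31); H2-Ab1 and H2-Aa rose by 2.02 and 1.63. The invariant chain Cd74 did not pass the test (0.61, SE 0.36), except without PEC replicate 3 (1.00), and the processing protease Lgmn fell by 2.25. Of 16 genes of class I presentation, 5 were called higher and 2 lower (median 0.17). With median centring they numbered 3 and 6 (median −0.30), and 3 and 0 within slide 1, 7 and 0 without F4/80low replicate 1 and 5 and 6 (median −0.10) with normexp. Nlrc5, the activator of class I genes, rose by 2.79 and the peptide transporter Tap1 by 2.21 (1.47 with normexp). Of 11 checkpoint and costimulatory genes, 3 were called higher and 4 lower (median −0.24). Within slide 1 higher and lower members numbered 2 and 2 (median 0.18). Cd40, the costimulatory receptor for T cell help, stood at 4.28, 5.54 and 5.28 against −1.13, 0.78 and −0.05 and rose by 5.16 (SE 0.46), the T cell ligand Cd86 rose by 2.21, and Sirpa, which inhibits uptake of cells bearing CD47, fell by 2.60. Against F4/80high TAMs, 8 of 9 class II and 15 of 16 class I genes measured on all 9 arrays were called lower. Of all 16462 genes tested, 3064 were.

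Complement genes moved in both directions. Of 13 measured in both groups, 4 were called higher and 9 lower (median −1.96). Within slide 1 this split was 2 and 7, and 2 and 9 with normexp and 1 and 9 with median centring. C3, the component on which all pathways converge (probe on chromosome 17, 57343416 to 57343475 of mm9), stood at 7.53, 6.11 and 5.18 against 3.17, 2.83 and 3.02 and rose by 3.26 (SE 0.48). The chains of C1q, which opens the classical pathway, were lower: C1qa stood at 2.37, 3.60 and 3.91 against 5.39, 4.73 and 5.65 and fell by 1.96 (SE 0.42), C1qb fell by 2.66 and C1qc by 2.52. Of 13 coagulation and plasminogen genes, 2 were called higher and 5 lower. Within slide 1 these counts were 1 and 3 (median 0.31), and 1 and 3 without F4/80low replicate 1. Plau, the urokinase that activates plasminogen, stood at 0.26, 0.73 and −0.45 against 3.10, 4.01 and 3.41 and fell by 3.33, and the junction protein F11r rose by 4.33 (2.75 with normexp).

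Of 16 matrix and matrix protease genes measured in both groups, 4 were called higher and 7 lower (median −0.36). Besides Mmp9, the membrane protease Mmp14 rose by 2.57 (1.56 within slide 1). Timp1, an inhibitor of matrix proteases such as the product of Mmp9, stood at −0.08, 1.16 and 0.71 against 3.74, 5.64 and 5.60 and fell by 4.40 (SE 0.50). The heparanase Hpse fell by 2.80, fibronectin (Fn1) by 2.19 and osteopontin (Spp1) by 2.03. Mmp12, the macrophage elastase, was above background on 2 of 3 F4/80low arrays, at −2.39, −0.94 and −0.22 against 6.58, 8.05 and 7.76.

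Lysosomal genes were mostly lower, with a few exceptions. Of 28 measured in both groups, 5 were called higher and 15 lower (median −0.99). With median centring the counts became 3 and 18. Lipa, the lysosomal acid lipase, stood at 2.85, 3.80 and 3.61 against 7.28, 7.26 and 7.41 and fell by 3.90 (SE 0.26). The cathepsins Ctsl, Ctsd and Ctsb fell by 3.16, 2.97 and 2.09, and the membrane protein Lamp1 by 2.57. The largest rises were in Acp5 and Ctsk. Acp5, the tartrate-resistant acid phosphatase, stood at 11.36, 11.21 and 11.61 against 8.52, 7.13 and 8.0 and rose by 3.51 (SE 0.33). Ctsk, the collagen-degrading cathepsin K (probe on chromosome 3, 95313165 to 95313224 of mm9), stood at 10.27, 10.45 and 10.63 against 7.59, 7.60 and 7.98 and rose by 2.73 (SE 0.37). Of 12 genes of the phagocyte oxidase and of killing, 2 were called higher and 5 lower (median −0.71). Within slide 1 higher and lower calls numbered 2 and 3. The oxidase subunit Cyba fell by 2.04, whereas Nos2, which makes nitric oxide in activated macrophages, rose by 2.91 (1.89 with normexp) and Sod2, the mitochondrial superoxide dismutase, by 1.54.

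Acp5, Ctsk, Mmp9, Ocstamp and Oscar are each known from osteoclasts, the bone-resorbing cells of the monocyte lineage, and all also serve in other myeloid cells. Further genes known from those cells were looked up after these values had been seen, so they are given as values only and no count or test is made of them together. Nfatc1, a transcription factor induced by RANK, stood at 4.07, 4.14 and 3.93 against 2.42, 2.78 and 2.35 and rose by 1.53 (SE 0.18; 2.71 as the mean of its probes). Car2, the carbonic anhydrase that supplies protons for acid secretion, stood at 3.34, 3.23 and 3.94 against −0.84, 0.62 and 0.04 and rose by 3.56. Tnfrsf11a, the gene of RANK, rose by 1.20 (0.73 with median centring). Calcr, the calcitonin receptor, was at least 7.78-fold higher. Siglec15 stood at 1.63, 1.54 and 1.54 against −2.05, −1.72 and −1.62, 3.37 higher (1.73 with normexp and 1.99 in the deposited values). Ostm1, a partner of a lysosomal chloride channel, went the other way and fell by 1.33. The fusion gene Dcstamp did not pass the test (0.55), though it did within slide 1 (1.33), and the proton pump subunits Tcirg1 and Atp6v0d2 differed by 0.06 and −0.10, short of the test.

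Genes of lipid-laden macrophages were lower almost throughout. Of 18 genes of lipid-associated macrophages measured in both groups, 1 was called higher and 16 lower (median −3.06). Fabp5, a carrier of fatty acids, stood at 5.12, 5.42 and 5.14 against 10.16, 9.70 and 9.84 and fell by 4.67 (SE 0.19). Plin2, which coats lipid droplets, stood at 5.59, 5.70 and 5.61 against 8.76, 8.96 and 8.90 and fell by 3.24, and the apolipoprotein Apoe fell by 2.35. Fabp4, a further fatty acid carrier of macrophages, was above background on 2 of 3 F4/80low arrays and stood at −2.28, −1.39 and 0.22 against 6.75, 7.35 and 7.08. F4/80low arrays lay below all PEC arrays for each of these genes.

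Enzymes of cholesterol synthesis were lower too. Of 23 measured in both groups, 0 were called higher and 20 lower (median −1.20), and within slide 1 11 were called lower (median −1.44). Hmgcs1, the synthase at the head of the pathway, stood at 4.31, 4.18 and 3.99 against 5.60, 5.03 and 5.45 and fell by 1.20 (SE 0.19). Sqle, the squalene epoxidase, stood at 2.92, 2.88 and 2.65 against 4.48, 4.58 and 4.71 and fell by 1.77, and the mevalonate enzymes Mvk and Mvd fell by 1.86 and 1.93. Against F4/80high TAMs, 7 of 17 members measured on all 9 arrays were called higher and 1 lower. Of all 16462 genes tested, 2304 were called higher and 3064 lower. The sterol element TCACNCCAC was in 1 of 16 windows matched to the 24 genes listed and in 1.44% of all, and the window that held it is shown, in capitals as above.
Hmgcs1 (chr13:119690151-119690350, plus strand): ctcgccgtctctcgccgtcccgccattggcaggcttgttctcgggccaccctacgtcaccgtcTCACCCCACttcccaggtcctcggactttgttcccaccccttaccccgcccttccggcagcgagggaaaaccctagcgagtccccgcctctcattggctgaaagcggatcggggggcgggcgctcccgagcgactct

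Of 16 genes of cholesterol efflux and lipoprotein handling, 2 were called higher and 10 lower (median −1.11). Within slide 1 they numbered 0 and 8, and 0 and 12 with median centring. Nceh1 and Soat1, which split and form cholesteryl esters, fell by 4.39 and 3.20, and the transporter Abca1 fell by 1.22. Of 18 genes of fatty acid uptake and oxidation, 2 were called higher and 11 lower (median −0.60). With median centring higher and lower members numbered 0 and 13, and 0 and 5 within slide 1. Cpt1a, which admits fatty acids to mitochondria, fell by 2.12.

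Genes of central energy metabolism moved both ways, and several of their counts turned with the scaling. Of 18 glycolysis genes measured in both groups, 1 was called higher and 3 lower (median −0.38). With median centring this split was 0 and 9, and 1 and 9 with normexp. Hk3, a hexokinase of myeloid cells, stood at 3.41, 2.67 and 2.80 against 5.80, 5.85 and 5.90 and fell by 2.89, and the mutase Pgam1 fell by 1.39. Of 13 hypoxia response genes, 4 were called higher and 2 lower. With median centring these counts were 1 and 4, and 1 and 1 (median 0.33) within slide 1 and 2 and 2 without F4/80low replicate 1. Ndrg1 rose by 2.66 and the mitophagy receptor Bnip3l fell by 2.14. Of 20 genes of the tricarboxylic acid cycle, 6 were called higher and 4 lower (median 0.18). Without F4/80low replicate 1 the counts became 2 and 4, and 3 and 4 with normexp, 0 and 4 (median −0.29) with median centring, 1 and 2 within slide 1 and 3 and 4 without PEC replicate 1. The cytosolic isocitrate dehydrogenase Idh1 stood at −0.96, −0.80 and −0.99 against 1.85, 0.98 and 1.66 and fell by 2.41 (−1.41 with normexp). Of 26 respiratory chain genes, 9 were called higher and 2 lower (median 0.25). Within slide 1 higher and lower calls numbered 2 and 0, and 4 and 8 with normexp and 0 and 3 (median −0.22) with median centring. Against F4/80high TAMs, 18 of 26 respiratory chain genes and 12 of 19 cycle genes measured on all 9 arrays were called higher and none lower, both by limma. Of all 16462 genes tested, 2304 were called higher and 3064 lower. Median centring and quantile normalization were run only against PECs, so whether these subset counts turn with them was not tested.

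Of 11 genes of arginine, nitric oxide and itaconate metabolism measured in both groups, 4 were called higher and 1 lower (median 0.32). The median was −0.16 with median centring. Arg1, the arginase of alternatively activated macrophages, stood at 3.58, 3.53 and 3.32 against 0.59, −0.54 and 1.68 and rose by 2.90 (SE 0.51). The mitochondrial arginase Arg2 was at least 22.2-fold higher. Of 10 genes of alternative activation, 4 were called higher and 4 lower, the rises including Chil3 and Arg1 and the falls Clec7a, Mrc1 and Egr2. Of 13 eicosanoid enzymes, 0 were called higher and 3 lower; thromboxane synthase Tbxas1 fell by 2.19, and Ptgs2, the inducible cyclooxygenase, was at least 21.1-fold higher. Within slide 1 higher and lower members numbered 0 and 1, and 0 and 5 without F4/80low replicate 1, 0 and 5 with normexp and 0 and 6 with median centring.

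Iron genes were called at shares near those over all genes measured in both groups (18.4% higher and 29.9% lower). Of 21 genes of heme, iron and the Nrf2 response, 3 were called higher and 7 lower (median −0.39). Within slide 1 this split was 6 and 3 (median 0.10). Slc40a1, the iron exporter ferroportin, stood at 3.05, 2.49 and 1.77 against −1.26, −0.73 and −0.83 and rose by 3.38 (SE 0.30; 2.07 with normexp). Tfrc, the transferrin receptor that imports iron, stood at 3.32, 3.20 and 3.11 against 1.15, 0.93 and 1.48 and rose by 2.02 (SE 0.19). Slc11a1, the metal transporter of phagosomes, stood at 4.30, 4.90 and 4.19 against 6.77, 6.93 and 7.15 and fell by 2.48, and the biliverdin reductase Blvrb fell by 2.33.

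Of 19 cell cycle genes measured in both groups, 4 were called higher and 3 lower (median 0.38). With median centring these counts were 3 and 5, and 0 and 1 within slide 1. The median was −0.15 without F4/80low replicate 1. Pcna, the sliding clamp of replication, fell by 1.61. Of 24 p53 targets and cell death genes, 9 were called higher and 3 lower (median 0.60). With median centring the counts became 7 and 7, and 9 and 0 within slide 1 and 9 and 7 with normexp. Casp4, the caspase that senses cytosolic lipopolysaccharide, stood at 6.16, 6.14 and 6.24 against 2.61, 3.22 and 2.91 and rose by 3.27, and the pro-apoptotic Pmaip1 rose by 2.70. Of 20 stress genes, 6 were called higher and 1 lower (median 0.29). Without PEC replicate 1 higher and lower calls numbered 4 and 3, and 5 and 3 with normexp and 4 and 3 (median −0.18) with median centring. Hspa1a stood at 4.02, 4.27 and 5.32 against −2.21, −1.39 and −1.62, and Chac1, which degrades glutathione in the integrated stress response, rose by 2.95. Of 28 cytosolic ribosomal protein genes, 15 were called higher and 0 lower (median 0.48), and this direction was not kept by the scaling. With normexp they numbered 2 and 0, and 0 and 0 with median centring and 4 and 0 within slide 1.

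The comparison of F4/80high TAMs with PECs used the same PEC arrays, so the subsets, whose arrays all lay on slide 1, were tested against each other directly. F4/80low and F4/80high TAMs differed in 5368.0 of 16462.0 genes (32.6%), with 2304.0 higher and 3064.0 lower in F4/80low TAMs by limma. Of 12764.0 genes measured on all 9 arrays, 151.0 were called in opposite directions against PECs in the subsets, 61.0 of them higher in F4/80low and lower in F4/80high TAMs. Of these Ctsk differed most between the subsets. It stood at 10.27, 10.45 and 10.63 in F4/80low TAMs, 7.59, 7.60 and 7.98 in PECs and 3.92, 3.46 and 5.11 in F4/80high TAMs. The difference between the subsets was 6.28 (limma adjusted p 1.08e-05, and 0.00159 with the replicate number as a block in the 6 TAM arrays). Ramp3, which directs calcitonin-family receptors, stood at 3.84, 3.91 and 2.96, −0.53, 1.56 and 0.56 and −0.63, −1.20 and −1.75 in the same order, and Fam102a at 5.82, 5.95 and 6.72, 2.58, 3.03 and 2.64 and 1.92, 1.54 and 1.93. For these genes F4/80low arrays were highest and F4/80high arrays lowest, which their choice by opposite calls largely fixed. All 151 genes so called were also called between the subsets.

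C1q chains gave the reverse order. C1qa stood at 2.37, 3.60 and 3.91 in F4/80low TAMs, 5.39, 4.73 and 5.65 in PECs and 8.43, 8.11 and 7.52 in F4/80high TAMs. Its difference between the subsets was −4.73 (limma adjusted p 8.22e-05, and 0.005 with the replicate number as a block in the 6 TAM arrays). C1qb differed by −4.63 and C1qc by −4.71 between them. Mmp9, Acp5 and Tfrc were higher in F4/80low TAMs than in either other group. Mmp9 stood at −0.32, −0.63 and 0.49 and Tfrc at −1.73, −2.04 and −1.86 in F4/80high TAMs, 6.53 and 5.09 below the F4/80low means. The margin of Acp5 over F4/80high TAMs was much smaller, at 0.99 (limma adjusted p 0.0442). Itgb3, the integrin chain that binds vitronectin and osteopontin, stood at 3.58, 3.80 and 2.85, 2.07, 2.71 and 1.78 and −2.57, −3.08 and −2.86 in F4/80low TAMs, PECs and F4/80high TAMs; its rise of 1.22 against PECs was lost within slide 1 (1.34) and with median centring (0.74). Of the 12764 genes measured on all 9 arrays, 435.0 were called higher in F4/80low TAMs than in both other groups and 998.0 lower than in both. With the replicate number as a block in the 6 TAM arrays these counts were 391 and 790.

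**Figure D4:**
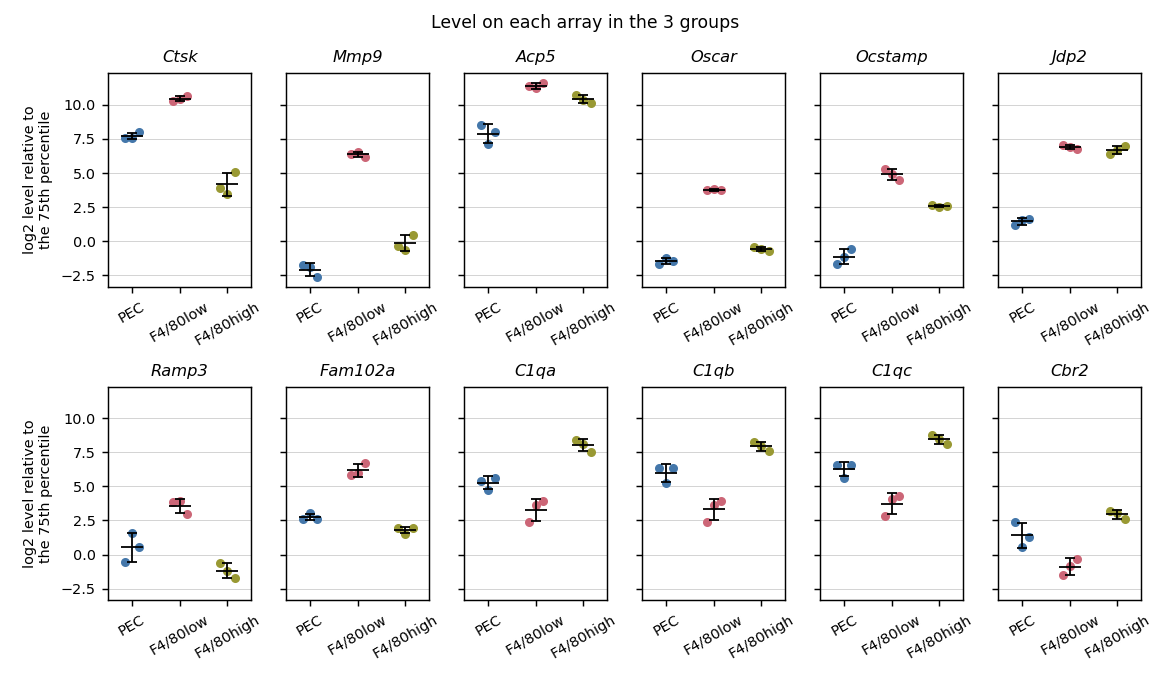
Log2 level relative to the 75th percentile on each array of PECs, F4/80low and F4/80high TAMs (points in order of replicate) for 12 genes, with the mean and SD (n = 3) in black. Ctsk, Ramp3 and Fam102a are highest in F4/80low and lowest in F4/80high TAMs, and C1qa, C1qb, C1qc and Cbr2 are lowest in F4/80low and highest in F4/80high TAMs.

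The F4/80low arrays were more spread than those of the other groups. Over genes measured on all 9 arrays the median SD was 0.257 among F4/80low, 0.208 among PEC and 0.191 among F4/80high arrays. Among genes measured in both groups, 301.0 ranged at least 4-fold over the F4/80low arrays and 86.0 over the PEC arrays; replicate 1 was the farthest F4/80low array in 204.0 of the former. Serpinb1a, an inhibitor of neutrophil proteases, stood at 5.80, 1.65 and 0.82 in F4/80low TAMs and 1.64, 4.78 and 3.89 in PECs, and Alox5, which makes leukotrienes, at 3.79, −0.02 and −0.77 against −1.19, 0.55 and 0.94. The cell cycle genes E2f2 and Rrm2 stood at 4.71, 1.00 and −0.25 and 4.12, 0.89 and −0.47 in F4/80low TAMs. Replicate 1 was the highest in each. Nostrin stood at 3.98, −0.57 and −0.99 and the spindle gene Spc25 at 4.49, 1.05 and 0.02; without replicate 1 both passed the test as lower than in PECs, at −1.79 and −1.64. Hmox1, heme oxygenase, stood at 7.94, 4.16 and 8.94, with replicate 2 lowest. Groups overlapped for these 7 genes, and none passed the test against PECs in the fit of all arrays; Rrm2 passed with array weights, with the replicate block, without PEC replicate 1 (3.30) and without F4/80low replicate 3 (3.67).

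Among PECs, replicate 1, the PEC array on slide 1, was highest for Cx3cr1 and lowest for Asns, Mmp13 and Serpinb1a. The chemokine receptor Cx3cr1 stood at 2.19, −1.60 and 0.02 in PECs, Asns, which makes asparagine, at 2.57, 6.00 and 4.46 and the collagenase Mmp13 at 0.31, 3.65 and 3.51. Asns was 1.85 higher in F4/80low TAMs (6.37, 6.19 and 6.01) and passed the test by limma, as it did within slide 1 (3.62), but not without PEC replicate 1 (0.96), PEC replicate 3 (1.91) or any F4/80low array (1.76, 1.84 and 1.94), with normexp (1.48), with median centring (1.37), with array weights (1.34) or in the fit of the 6 arrays alone. Mmp13 did not pass (0.99), and its difference was 3.17 within slide 1, past the test, and −0.10 without PEC replicate 1. The part of slide in these values was not tested.

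**Figure D5:**
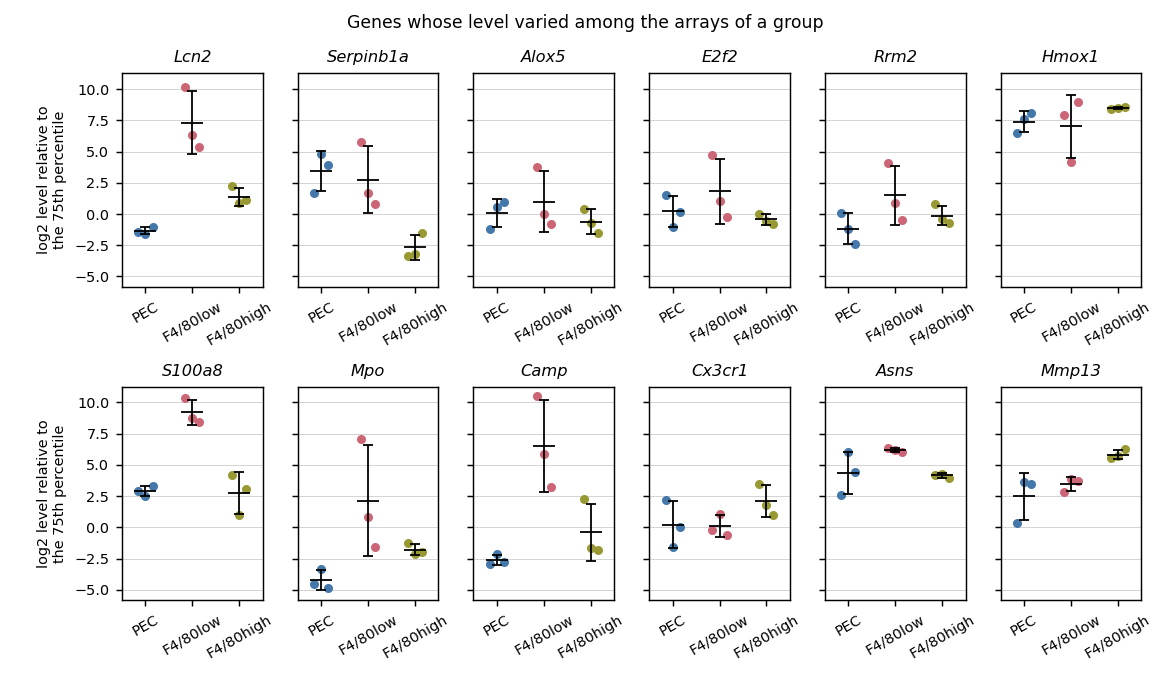
Log2 level relative to the 75th percentile on each array of PECs, F4/80low and F4/80high TAMs (points in order of replicate), with the mean and SD (n = 3) in black, for genes that varied among the arrays of a group. F4/80low replicate 1 is the highest of its group for Lcn2, Serpinb1a, Alox5, E2f2, Rrm2, S100a8, Mpo and Camp, and PEC replicate 1 is the lowest PEC array for Asns and Mmp13.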

How the data were processed

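RNA of 9 samples, 3 each of PECs, F4/80low TAMs and F4/80high TAMs, was measured on 1-colour Agilent arrays. The deposited intensities came from Agilent Feature Extraction 10.5.1.1, which had subtracted background and removed spatial trends within each array, per the file headers. RNA was purified on columns, per the labels' protocols. The authors also deposited a table of log2 values whose normalization is not given in the sources used here; it served as an alternative. Probe positions are those of mm9, per the file headers, and exon annotation of that build was not used here.

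Each array's log2 processed intensity was set relative to its 75th percentile over non-control spots. Spots flagged as outliers were left out (103 to 307 an array), which removed a value among the 6 arrays from 5 genes, and spots of a probe were averaged. A probe was kept where 1 group or more had it well above background on its 3 arrays, which left 21197, and the brightest stood for its gene. Of 59305 non-control spots, 36.2% to 38.3% were well above background on each of the 6 arrays, and none was saturated; 3 arrays a group limit the precision (median SE 0.236). All 9 arrays were fitted together with limma 3.58.1 in R 4.3.3, with two-sided moderated tests and Benjamini-Hochberg adjustment at 0.05. Alternatives were normexp background correction (offset 50), quantile normalization, median centring, other probe filters, the mean of a gene's probes, the 6 arrays alone, array weights, slide or replicate number as a block, slide 1 alone, the deposited table, limma treat and leaving out each array; those for list counts were added after the data had been seen. The pipeline was tested on simulated data. Promoter windows came from RefSeq (GRCm38.p6).

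The comparison, the gene lists and the members were chosen with earlier results of these data known. The genes named are Adgre1, the 20 largest rises and falls without overlap, the 8 largest bounds each way, the 2 largest rises and falls and the largest bounds of a list, the 10 genes opposite between the subsets and the genes with the widest range; further list members were named after their values were seen, and some that the rule would name, 1 of the 10 among them, are not reported here. The correlations of deviations from the group means were −0.03 to 0.09 between same-numbered F4/80low and PEC arrays, so their numbers pair nothing. Between same-numbered F4/80low and F4/80high arrays they were 0.13 to 0.23, so a pairing was taken from the data and run as a block. The labels give no source of the pairing. Counts and adjusted p between the subsets come from the fit without pairing, except where the block is named.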

Additional observations from a re-analysis of the deposited data

Results flagged for a closer look

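Given here are 9 of the genes with the largest differences between the subsets, among those measured on all 9 arrays and called in opposite directions against PECs, by the direct limma test of F4/80low minus F4/80high TAMs. Ctsk was 6.28 higher in F4/80low TAMs (adjusted p 1.08e-05) and Ramp3 4.76 (adjusted p 0.000201). With the replicate number as a block in the 6 TAM arrays their limma adjusted p were 0.00159 and 0.00151. Fam102a was 4.37 higher and Plekhg5, a GTPase exchange factor, 4.28 higher; F4/80low levels of Fam102a were 5.82, 5.95 and 6.72, PEC levels 2.58, 3.03 and 2.64 and F4/80high levels 1.92, 1.54 and 1.93. The C1q chains differed by −4.73 for C1qa, −4.63 for C1qb and −4.71 for C1qc. Cbr2, a carbonyl reductase, differed by −3.84, with F4/80low levels of −1.53, −0.87 and −0.30, PEC levels of 2.41, 0.58 and 1.29 and F4/80high levels of 3.18, 3.04 and 2.61; against PECs it fell by 2.33 (−1.40 with normexp and −1.50 in the deposited values). The probe of Vmn1r48, which the array design assigns to a vomeronasal receptor, differed by −3.79; its level against PECs, −1.55, passed the test and was −2.97 within slide 1, but did not pass with normexp (−0.77), with array weights (−1.03), in the fit of the 6 arrays alone, with no filter on dim probes, or without PEC replicate 1 (−0.84), PEC replicate 2 (−1.73), F4/80low replicate 1 (−1.47) or F4/80low replicate 2 (−1.40); it was −0.95 in the deposited values. In each of the 9 genes the 3 F4/80low arrays lay on one side and the 3 F4/80high arrays on the other side of all PEC arrays. The genes were chosen for calls in opposite directions against PECs, so this order and the subset differences largely follow from that choice. All 151 genes so called were also called between the subsets. Each group has 3 arrays, so no array was tested as an outlier of its group.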

How the results depend on the processing

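The count of called genes stayed within 1.5 times the 8542 reported, from 6194 in the deposited table, where 8173 genes were tested and not 16462, to 9298 with array weights, under other normalizations, probe rules and sets of arrays and without any 1 array (6604 to 8468), apart from these settings. With slide as a block it was 4904 (2199 higher, 2705 lower), within slide 1, where PEC replicate 1 is the lone PEC array, 4127 (1943 and 2184), against a minimum change of 1 on the log2 scale (limma treat) 1999 (1068 and 931), and with no filter on dim probes 14388, 9644 of them higher. Median centring gave 1931 higher. The subsets differed in 5368 genes, in 3914 to 4976 without any 1 TAM array, and in 4875 with the replicate number as a block in the 6 TAM arrays, chosen after seeing the data, which changed no call between the subsets printed for a single gene. There it called 10 GTPases lower, and 15 respiratory chain and 9 cholesterol synthesis genes higher, in F4/80low TAMs; the counts of class I, class II, type I interferon and cycle genes did not move. Median centring and quantile normalization were not run for the difference between the subsets. With the replicate block 8349 genes were called against PECs, and 1 of 241 named genes, Rrm2, gained a call. Within slide 1, 229 of the 241 kept direction and side of the threshold.

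Genes that were not called and turned direction, the cause not tested, were as follows. Within slide 1 and with slide as a block, Atp6v0d2 was 0.01, Hmox1 0.53 and Serpinb1a 1.11. Median centring gave Vegfa −0.23 and Tcirg1 −0.41, normexp Tcirg1 −0.23 and Nostrin 0.18, array weights Vegfa −0.02 and Cx3cr1 0.60, and the mean of a gene's probes Hmox1 0.10. Over the fits without 1 array, Alox5 ran from −0.50 to 1.78, Cx3cr1 from −1.02 to 0.88, Hmox1 from −1.35 to 1.04 and Mmp13 from −0.10 to 1.57. In those fits Nostrin ran from −1.79 to 0.70, Serpinb1a from −2.20 to 0.28, Spc25 from −1.64 to 0.60, Tcirg1 from −0.09 to 0.26, Vegfa from −0.20 to 0.57 and Atp6v0d2 from −0.20 to 0.02.

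Tissue, tumour and handling differ together between the groups, the F4/80low arrays carry more RNA of neutrophil and lymphocyte markers, and 2 of 3 PEC arrays lie on another slide. Genes dim in 1 group have bounds only.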
